A study of Homo sapiens with 3 samples.

Results

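Resistant 1 and Resistant 2 are 2 clones of one gemcitabine-resistant derivative of 5637, an established human bladder cancer line. They were compared here with each other, across every gene with at least 30 reads summed over the pair, which were 14135 of the 29960 genes listed. The labels give 1 RNA library for each clone, of genotype Gemcitabine Resistant, and 1 for a clone of the starting line, Parental 1, of genotype WT, which served only as a reference level. All 3 are labelled untreated, and the resistant line was made by gemcitabine exposure, which the labels call acute and the study's methods describe as stepwise, and was then kept without the drug. The cells were single-cell clones, and the study describes 3 clones per group, of which those labelled here were analysed. With 1 library a clone, a difference between clones, between cultures and between library preparations cannot be told apart, and no test was made. Total reads on genes were 15836788 in Resistant 1, 17461941 in Resistant 2 and 14475531 in Parental 1. Levels are in CPM, reads per 1000000 after scaling by edgeR's TMM method, and a difference is the log2 ratio of Resistant 2 over Resistant 1. Intervals are exact 95% binomial intervals and cover counting error only.

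Gemcitabine is a cytidine analogue that cells take up through nucleoside transporters and phosphorylate with deoxycytidine kinase, after which it stalls DNA synthesis and inhibits ribonucleotide reductase. Resistance in cultured tumour lines is known to arise through several routes, and a line selected over many passages can hold cells that differ in gene dosage, in silenced genes and in secreted factors. A single-cell clone samples 1 such cell. All 10 epithelial markers examined, among them EPCAM, CDH1 and KRT19, were above 3 reads in each library, and their summed level was 8136 CPM in Resistant 1, 8556 in Resistant 2 and 10366 in Parental 1. The summed leukocyte, endothelial, red cell and neuroendocrine markers were at most 2.23 CPM in any library. The fibroblast markers summed to 146 to 174 CPM, nearly all from COL1A1 and COL1A2, with LUM and FAP at 0 reads in all 3.

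Of the 14135 genes, 1354 were at least 2-fold apart between the clones, which is 9.58% of those measured. Resistant 2 was the higher clone for 883 genes (6.25%) and Resistant 1 for 471 (3.33%). At least 4-fold apart were 171 and 46 genes. The median size of the difference was 0.35 on the log2 scale, close to the 0.35 between Resistant 1 and Parental 1 and below the 0.42 between Resistant 2 and Parental 1. Against the parental library, 11.8% of the same genes were at least 2-fold apart in Resistant 1 and 15.6% in Resistant 2, and these comparisons share the parental library. The share apart was 24.4% among genes under 100 reads and 4.02% among those with over 1000.

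**Figure D1:**
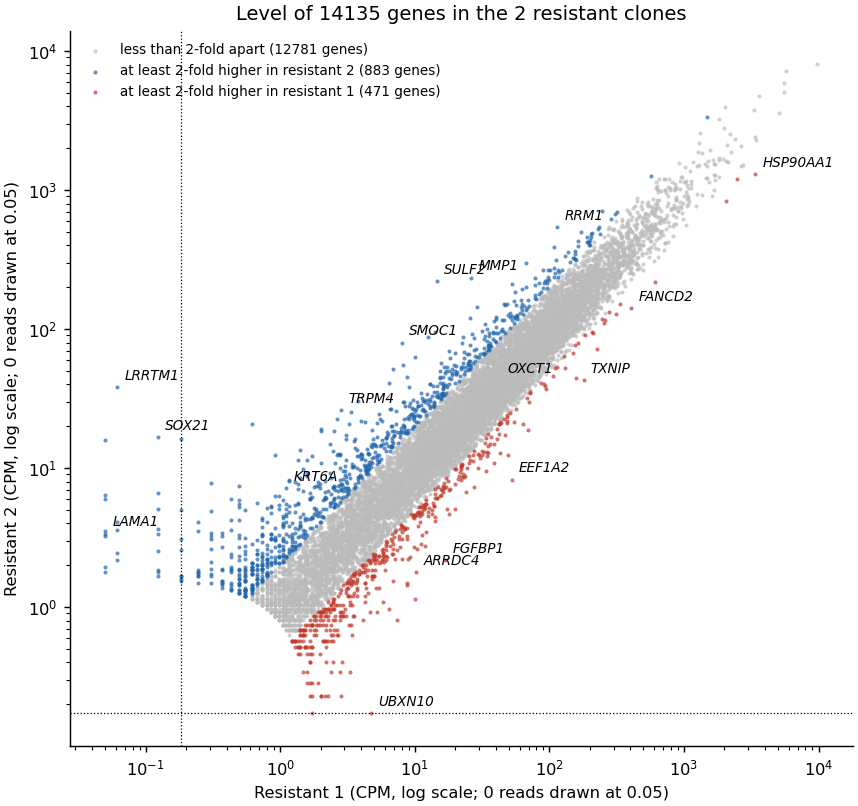
Each point is 1 of the 14135 genes, with its level in Resistant 1 on the x axis and in Resistant 2 on the y axis, in CPM on log scales, and dotted lines mark 3 reads. Of the 883 genes higher in Resistant 2 (blue), 25 lie at the left edge, at or below 3 reads in Resistant 1, whereas UBXN10 lies on the lower dotted line.

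The difference between the clones ran with GC content. The median log2 ratio was -0.17 in the decile of genes with the lowest GC content and 0.47 in the decile with the highest. The same trend was present for Resistant 2 over Parental 1, at -0.13 and 0.46, and was small for Resistant 1 over Parental 1, at 0.05 and -0.02. The library of Resistant 2 was therefore the one that stood apart, with a read-weighted GC content of 52.5% against 51.1% and 51.5%. Of the genes in the highest decile, 16.9% were at least 2-fold higher in Resistant 2. After centring within classes of GC content and then of length, over the genes with a known GC content, 729 genes (5.29%) were higher in Resistant 2 and 383 (2.78%) in Resistant 1, of which 626 and 320 were the same genes as before. The centred ratio is given below for most gene groups and for genes of which it ends the call or moves the value most, and whether the trend came from the cells or from the library was not tested.

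**Figure D2:**
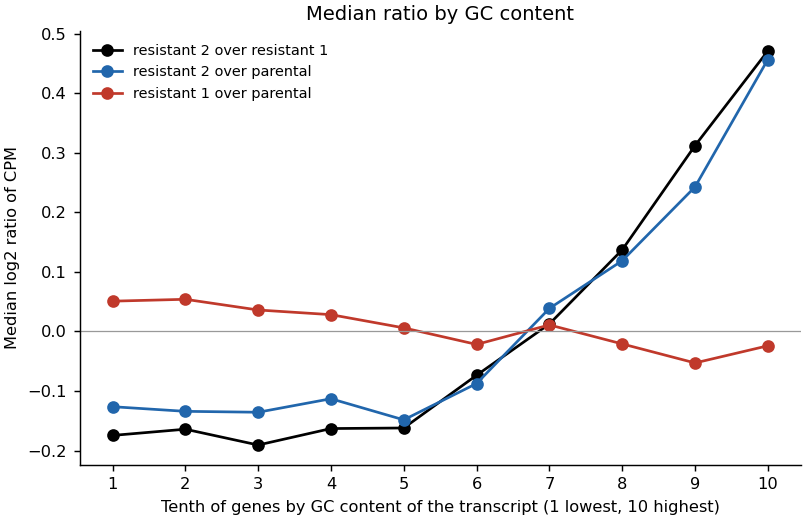
The median log2 ratio of CPM is plotted for each decile of the genes by GC content of the transcript, for the 3 pairs of libraries. The lines that involve Resistant 2 climb to 0.46 and 0.47 at the highest decile, and that of Resistant 1 over Parental 1 ends at -0.02.

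With 1.5-fold as the limit for a level near that of Parental 1, most genes that set the clones apart lay outside it in a single clone. Resistant 2 alone lay outside the limit for 539 of the 1354 genes and Resistant 1 alone for 359. In 284 genes both clones lay on the same side of the parental level at different distances, and in 149 they lay on opposite sides. The remaining 23 were within the limit in both. After centring for GC content and length, among the genes then at least 2-fold apart, the numbers came closer. Resistant 2 alone lay outside the limit for 385 and Resistant 1 alone for 308.

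The widest gaps were of genes at or near 0 reads in Resistant 1. In this clone 25 genes held 3 reads or fewer while Resistant 2 held at least 30, and 18 of these had 10 or more reads in Parental 1. The opposite case was a single gene, UBXN10, with 77 reads in Resistant 1, 3 in Resistant 2 and 66 in Parental 1. Among the 25 were SOX21, a transcription factor of the SOX family with roles in epithelial and neural development, and SOX21-AS1, the long noncoding RNA transcribed away from it. SOX21 held 2 reads in Resistant 1, 293 in Resistant 2 and 217 in Parental 1. SOX21-AS1 held 0, 277 and 162 reads. The pair was at 16.8 and 15.9 CPM in Resistant 2 and 15.4 and 11.5 in Parental 1, while Resistant 1 was at the floor for both. The SOX21 ratio of the clones was 137-fold (interval 37.6 to 1137), and SOX21-AS1 was at least 86.4-fold higher in Resistant 2, counted against a floor of 3 reads. The genes lie on chromosome 13 (hg19, 95361886 to 95364389 on the minus strand and 95364970 to 95366749 on the plus strand) and do not overlap in the deposited annotation.

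In RefSeq on GRCh38.p14 the pair starts from opposite strands with starts 171 bases apart, and the 170 bases between them are shown because this one interval lies upstream of both genes that were at the floor in Resistant 1. It spans chr13:94712546-94712715, is written 5′ to 3′ on the strand of SOX21 (minus), and its 7 CG dinucleotides are in capitals.
SOX21 to SOX21-AS1: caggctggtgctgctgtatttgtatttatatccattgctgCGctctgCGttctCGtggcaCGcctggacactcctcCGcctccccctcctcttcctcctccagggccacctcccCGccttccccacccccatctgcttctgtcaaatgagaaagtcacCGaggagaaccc
In the deposited annotation (hg19) the starts lie farther apart, at 95364389 for SOX21 and 95364970 for SOX21-AS1. Over the 250 bases before the start, the median was 11 CG among 35116 RefSeq promoter windows. Those windows are longer than the 170 bases shown, so the counts of CG are not on the same scale. Methylation was not measured, and 17 of the 26 genes at the floor in a clone had a window under the symbol used here.

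Other genes at 0 reads in Resistant 1 and of similar read number in Resistant 2 and Parental 1 were KLHL26 (0, 111 and 110 reads in Resistant 1, Resistant 2 and Parental 1), PIK3CG, the catalytic gamma subunit of phosphoinositide 3-kinase (0, 105 and 71), WISP3, a matricellular CCN protein (0, 62 and 47), and CEACAM5, the carcinoembryonic antigen (0, 57 and 44). They were at least 34.6-, 32.7-, 19.3- and 17.8-fold higher in Resistant 2. LAMA1, the laminin alpha 1 chain of basement membranes, was low in both clones by comparison with Parental 1, with 0 reads in Resistant 1, 59 in Resistant 2 and 991 in the parental library. ASTN1, a neuronal adhesion protein, held 10, 360 and 240 reads, so Resistant 1 was again the clone far from the parental level.

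A smaller set was read in Resistant 2 and nearly absent from the other libraries. LRRTM1, a leucine-rich repeat protein of synapses, held 1 read in Resistant 1, 671 in Resistant 2 and 16 in Parental 1, a ratio of the clones of 628-fold (interval 112 to 24831). MYCT1 held 1, 63 and 0 reads, and PPARGC1A, a coactivator of mitochondrial biogenesis genes, held 0, 31 and 0. SHISA3 held 5, 136 and 3 reads and was 25.4-fold higher in Resistant 2 (interval 10.6 to 79.6).

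**Figure D3:**
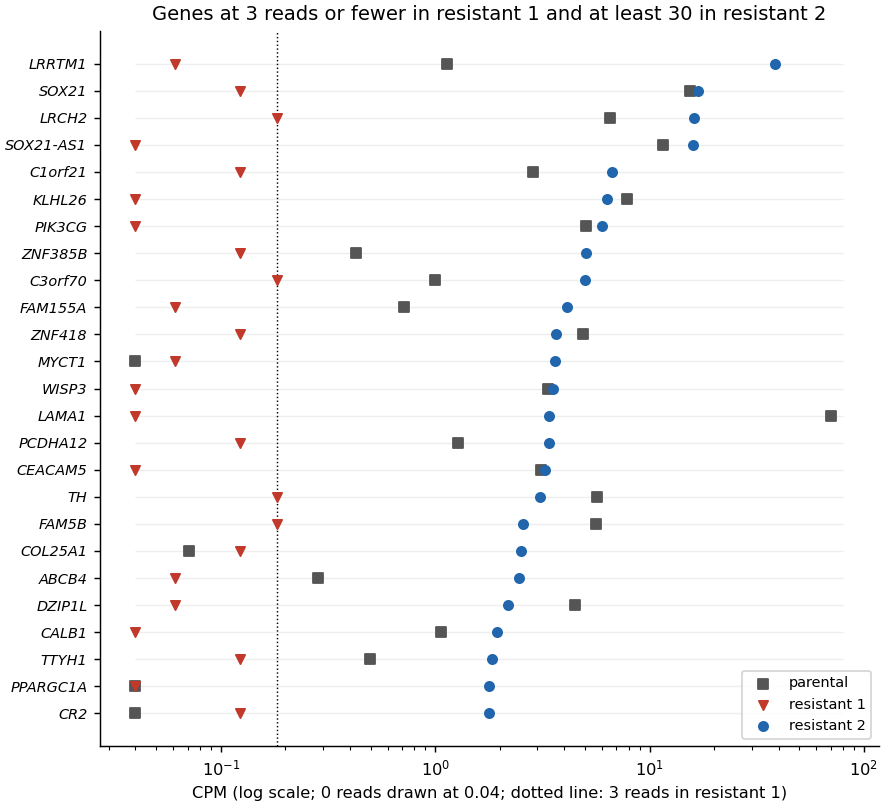
Levels of the 25 genes with 3 reads or fewer in Resistant 1 and at least 30 in Resistant 2 are plotted as CPM on a log scale, with squares for Parental 1, triangles for Resistant 1 and circles for Resistant 2. The parental square lies close to the circle of Resistant 2 for SOX21, WISP3 and CEACAM5, far above it for LAMA1 and far below it for LRRTM1.

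Among genes read in both clones, those with intervals farthest from equality included matrix and heparan sulfate proteins. SULF2, a secreted sulfatase that trims heparan sulfate, was at 14.5 CPM in Resistant 1, 222 in Resistant 2 and 193 in Parental 1, a 15.3-fold difference between the clones (interval 13.4 to 17.5) with Resistant 2 near the parental level. SMOC1, a secreted calcium-binding matricellular protein, held 1 read in Parental 1 and was at 8.02 CPM in Resistant 1 and 79.9 in Resistant 2, so that it was present in both clones and 9.96-fold higher in the second (interval 8.32 to 12). MMP1, the interstitial collagenase, was at 26.3, 235 and 11.3 CPM, 8.92-fold higher in Resistant 2 (interval 8.07 to 9.87). The centred log2 ratios of SULF2, SMOC1 and MMP1 were 3.90, 3.22 and 3.39, against 3.93, 3.31 and 3.16 as measured.

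Resistant 1 was the higher clone for EEF1A2, a tissue-restricted translation elongation factor, at 52.6 CPM against 8.25 in Resistant 2 and 1.21 in Parental 1 (6.38-fold, interval 5.34 to 7.66). FGFBP1, a secreted carrier of fibroblast growth factors, was at 16.8 CPM in Resistant 1, 2.18 in Resistant 2 and 17.4 in Parental 1. PTGS1, the constitutive cyclooxygenase, was at 9.98, 1.15 and 1.99 CPM, and RARB, a retinoic acid receptor, at 7.41, 0.802 and 3.70. Resistant 2 was thus below the parental level for FGFBP1, the clones lay on opposite sides of it for PTGS1 and RARB, and EEF1A2 was above it in both. AQP3, a water and glycerol channel, was at 156, 44.7 and 55.4 CPM, and FLNC, the muscle-type filamin, at 605, 219 and 52.8 (log2 ratio -1.47, centred -1.96). The centred log2 ratio of EEF1A2 was -3.12, against -2.67.

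TXNIP and ARRDC4, a pair of arrestin-domain proteins that restrain glucose uptake and are induced by glucose, were both low in Resistant 2. TXNIP was at 180 CPM in Resistant 1, 42.7 in Resistant 2 and 221 in Parental 1, a 4.21-fold difference (interval 3.89 to 4.57). ARRDC4 was at 10.2, 1.78 and 20.8 CPM, a 5.76-fold difference (interval 3.91 to 8.74). Resistant 1 was within 1.5-fold of the parental level for TXNIP and 1.02 below it on the log2 scale for ARRDC4. The centred log2 ratio of ARRDC4 was -2.39, and TXNIP had no GC content under its identifier.

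Because these genes are known targets of the glucose-sensing factors that bind a pair of CACGNG boxes, the 250 bases before the start of each are shown from RefSeq (GRCh38.p14), 5′ to 3′ on the gene's strand, with every CACGNG match on either strand in capitals. TXNIP is on the minus strand at chr1:145996580-145996829 and ARRDC4 on the plus strand at chr15:97960453-97960702.
TXNIP: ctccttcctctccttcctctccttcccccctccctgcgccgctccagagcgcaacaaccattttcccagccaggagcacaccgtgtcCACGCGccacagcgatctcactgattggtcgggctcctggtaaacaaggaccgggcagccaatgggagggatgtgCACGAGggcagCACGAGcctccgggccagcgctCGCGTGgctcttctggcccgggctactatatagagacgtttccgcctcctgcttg
ARRDC4: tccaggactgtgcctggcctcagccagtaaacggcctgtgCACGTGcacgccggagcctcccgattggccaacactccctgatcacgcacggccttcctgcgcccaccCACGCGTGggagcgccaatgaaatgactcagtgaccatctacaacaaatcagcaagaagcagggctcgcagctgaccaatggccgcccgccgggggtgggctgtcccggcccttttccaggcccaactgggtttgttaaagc
For each gene the window with the most matches was taken, and TXNIP had 2 windows. The shares over all windows given below were made without such a choice. The TXNIP window shown held 4 matches, of which a pair is spaced by 5 bases. That spaced pair was found in 16 of the 35116 windows (0.0456%). ARRDC4 held 3 matches, 2 of them overlapping on opposite strands, and no spaced pair. At least 1 box was found in 26.7% of the windows and at least 3 in 1.46%. A match describes the letters of the window and does not show that a factor binds there.

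Secreted inflammatory factors were mostly higher in Resistant 2. The 5637 line is known for secreting colony-stimulating factors. Of 16 measured interleukins and colony-stimulating factors, 5 were at least 2-fold higher in Resistant 2 and 1 in Resistant 1, with a median log2 ratio of 0.57 and a centred median of 0.72, where the median of all genes was -0.02. The share apart was 37.5%. For this and every list below, shares apart compare with 9.58% of all genes, 6.25% towards Resistant 2 and 3.33% towards Resistant 1. IL11, a cytokine of the IL6 family, was at 15.5 CPM in Resistant 1, 45.3 in Resistant 2 and 9.18 in Parental 1. CSF3 was at 15.8, 32.9 and 2.56 CPM, and CSF2 at 5.45, 11.2 and 2.71. IL32 was at 12.2, 34.3 and 11.2 CPM. These 4 genes were 2.05- to 2.92-fold higher in Resistant 2, and CSF3, CSF2 and IL11 were also above the parental level in Resistant 1. After centring, CSF3 was 0.85 higher on the log2 scale and no longer past 2-fold. The exception was TNFSF10, the death ligand TRAIL, with 28 reads in Resistant 1, 4 in Resistant 2 and 30 in Parental 1.

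Of the 8 measured chemokines, 3 were at least 2-fold higher in Resistant 2 and none in Resistant 1 (37.5% apart, median 0.56, centred 0.76). CXCL5, a neutrophil attractant, was at 89.1 CPM in Resistant 1, 198 in Resistant 2 and 48.4 in Parental 1, and CXCL3 was at 9.74, 24.3 and 7.33. CXCL6 had a log2 ratio of -0.96, opposite in direction. Of 20 measured NF-kappaB targets and feedback genes, 2 passed 2-fold, both towards Resistant 2, a share near the 9.58% of all genes apart (median 0.39, also 0.39 after centring). They were RELB, an NF-kappaB subunit, at 27.5, 86.9 and 30.9 CPM, and PTGS2, the inducible cyclooxygenase, at 24.4, 65.8 and 23.4. For both genes Resistant 1 lay at the parental level.

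Members of the TGF-beta and BMP pathway were found in both directions. Of 26 measured members, 8 were at least 2-fold higher in Resistant 2 and 2 in Resistant 1, and 5 and 2 after centring (median 0.26, centred 0.28). INHBA, the subunit of activin A, was at 109 CPM in Resistant 1, 389 in Resistant 2 and 138 in Parental 1. FST, follistatin, which binds and blocks activin, was at 100, 267 and 118 CPM. GDF15, a stress-induced member of the family, was at 23.0, 87.5 and 1.28 CPM, high in both clones and 3.81-fold higher in Resistant 2. Against these, ID3, a target gene of BMP signalling, was at 19.9, 5.04 and 21.3 CPM, and the ligand BMP3 at 10.6, 3.84 and 4.41, both higher in Resistant 1. Of 28 measured Wnt pathway genes, 5 were at least 2-fold higher in Resistant 2 and 1 in Resistant 1 (21.4% apart, median 0.20, centred 0.14). FZD8, a receptor, was at 3.37, 25.4 and 4.98 CPM, 7.54-fold higher in Resistant 2 (log2 ratio 2.90, centred 2.39). The 1 higher in Resistant 1 was SFRP5, a secreted inhibitor, at 63.9, 20.9 and 31.0 CPM, a 3.06-fold difference.

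Extracellular matrix genes were more often higher in Resistant 2. Of 24 measured matrix proteases and urokinase genes, 6 were at least 2-fold higher in Resistant 2 and 1 in Resistant 1 (median 0.33, centred 0.32). MMP10, stromelysin 2, was at 29 CPM in Resistant 1, 144 in Resistant 2 and 62.2 in Parental 1, and MMP28 at 10.1, 62.7 and 64.1. ADAM8 was at 248, 711 and 82.4 CPM (log2 ratio 1.52, centred 1.06), and ADAMTS9 at 48.6, 150 and 20.9. Of 20 measured collagens, 7 were higher in Resistant 2 and none in Resistant 1 (median 0.53). After centring for GC content, 2 were higher in each clone, with a median of 0.40. COL6A1 was at 1.35, 11.4 and 7.76 CPM and stayed past 2-fold after centring, at 2.56 on the log2 scale. COL4A1 and COL4A2, which encode the main basement membrane collagen and overlap head to head on chromosome 13, were at 198, 406 and 461 CPM and at 566, 1254 and 1190. Their centred log2 ratios were 0.86 and 0.65.

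The basal urothelial keratins KRT6A and KRT17 were lower in Resistant 1 than in Resistant 2. KRT5 and KRT17 were far below the parental level in both clones. Of 19 measured basal markers, 5 were at least 2-fold higher in Resistant 2 and none in Resistant 1 (26.3% apart, median 0.41, centred 0.37), and 2 passed after centring. KRT6A was at 1.10 CPM in Resistant 1, 7.16 in Resistant 2 and 10.7 in Parental 1, and KRT17 was at 17.2, 53.1 and 196. KRT5, the defining keratin of basal cells, was at 9.80, 13.8 and 273 CPM, so it was low in both clones and less than 2-fold apart. TP63 and CD44 differed by 0.17 and 0.05. Keratin genes have close paralogs, and the counts of KRT6A, KRT14, KRT16 and KRT17 could include reads of these. KRT17 also overlaps JUP, a well expressed gene on the same strand. KLF5, a transcription factor listed with the luminal markers, was at 131, 335 and 312 CPM, and FGFR3, a growth factor receptor of luminal tumours, at 17.9, 6.99 and 16.2, so the luminal markers held members in both directions (15 measured, 3 and 1, median 0.02, centred -0.11). Of 14 measured squamous and cornified envelope genes, 4 were higher in Resistant 2, among them SPRR1B (33, 190 and 15 reads) and IVL, involucrin (23, 77 and 28 reads). In the same list, of which 50% was apart, 3 were higher in Resistant 1, the kallikreins KLK6 and KLK10 and the keratin KRT13.

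Histone, heat shock and mitotic genes were among the 7 lists with a median at least 0.3 towards Resistant 1. Of 17 measured replication-dependent histone genes, 11 were at least 2-fold higher in Resistant 1 and none in Resistant 2, with log2 ratios from -2.14 to -0.50 and a median of -1.12. After centring, 8 of the 12 with a GC content passed, with a median of -1.35. HIST1H2BK was at 38.7 CPM in Resistant 1, 10.9 in Resistant 2 and 27.3 in Parental 1, and HIST2H2BE at 14, 4.18 and 8.61. Most of these genes lie in the cluster on chromosome 6, and those on chromosomes 1 and 12, HIST2H2BE and HIST4H4 among them, were lower in Resistant 2 as well. After subtraction of the running median of neighbouring genes, the list's median was -0.82. Messages of this class mostly end without a poly(A) tail and were read from poly(A)-selected RNA, and near-identical copies of these genes can share reads.

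Of 36 measured genes of the mitotic cell cycle, 33 had a log2 ratio below that of the median gene, with a list median of -0.57 (centred -0.42). At least 2-fold higher in Resistant 1 were 3 of them, against 3.33% of all genes, and none was in Resistant 2. After centring 1 passed, CCNB2 at -1.08, while KIF20A and NDC80 were at -0.96 and -0.76. CCNB2, a mitotic cyclin, was at 54.4 CPM in Resistant 1, 21.6 in Resistant 2 and 54.2 in Parental 1, KIF20A, a mitotic kinesin, at 33.1, 15.1 and 93.7, and NDC80, of the kinetochore, at 35.2, 17.5 and 39.0. MKI67, a proliferation marker, was at 316, 326 and 341 CPM and differed by 0.05, and it lies in the stretch of chromosome 10 described below that was higher in Resistant 2. The 43 genes of DNA replication and repair had a median of -0.29 (centred -0.24), with 2 past 2-fold, FANCD2 and RPA3, of which RPA3 was at -0.81 after centring. The share apart was 4.65%, below the 9.58% of all genes. FANCD2, the hub of interstrand crosslink repair, was at 406, 142 and 339 CPM, a 2.86-fold difference (interval 2.73 to 3). In bulk RNA, fewer cycling cells and less RNA of these genes in each cell cannot be told apart. The study's methods describe growth of the clones to confluence before RNA extraction. The density of each culture at harvest was not analysed here.

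Heat shock genes were lower in Resistant 2, with 4 of 14 (28.6%) at least 2-fold higher in Resistant 1, none in Resistant 2 and a median of -0.70 (centred -0.64). HSP90AA1 and HSP90AB1, the cytosolic HSP90 chaperones, were at 3393 and 2499 CPM in Resistant 1, 1309 and 1203 in Resistant 2 and 2665 and 1889 in Parental 1. DNAJA1, a cochaperone, was at 275, 133 and 541 CPM. After centring HSP90AB1 and DNAJA1 were at -0.84 and -0.80, no longer past 2-fold. HSPA1A had 99, 50 and 85 reads and shares nearly all of its sequence with HSPA1B, whose log2 ratio was -0.56. BAG3 and DNAJB1, also induced by heat shock, differed by 0.18 and 0.05.

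Metabolic lists differed among themselves. Fatty acid oxidation genes had a median of -0.03 (23 measured), and the pentose phosphate pathway had -0.17 as measured and 0.07 after centring (13 measured). Of 26 measured NRF2 targets and aldo-keto reductases, 6 were at least 2-fold higher in Resistant 1 and none in Resistant 2 (23.1% apart, median -0.27, centred -0.30), and 5 after centring, when NQO1 was at -0.85. NQO1, a quinone reductase, was at 163 CPM in Resistant 1, 79.0 in Resistant 2 and 139 in Parental 1, PGD, of the pentose phosphate pathway, at 313, 129 and 369, and GPX2, a glutathione peroxidase, at 14, 4.41 and 4.70. The 32 genes of cholesterol and fatty acid synthesis had a median of -0.34 (centred -0.40). The share apart was 6.25%, below the 9.58% of all genes, with ACAT2 and FADS2 past 2-fold, at 41.0, 16.2 and 57.7 CPM and at 184, 90.9 and 470. Both genes overlap neighbours that are well expressed, TCP1 and SOD2 for ACAT2 and FADS1 and FEN1 for FADS2, and the strand setting of the counts is not known.

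**Figure D4:**
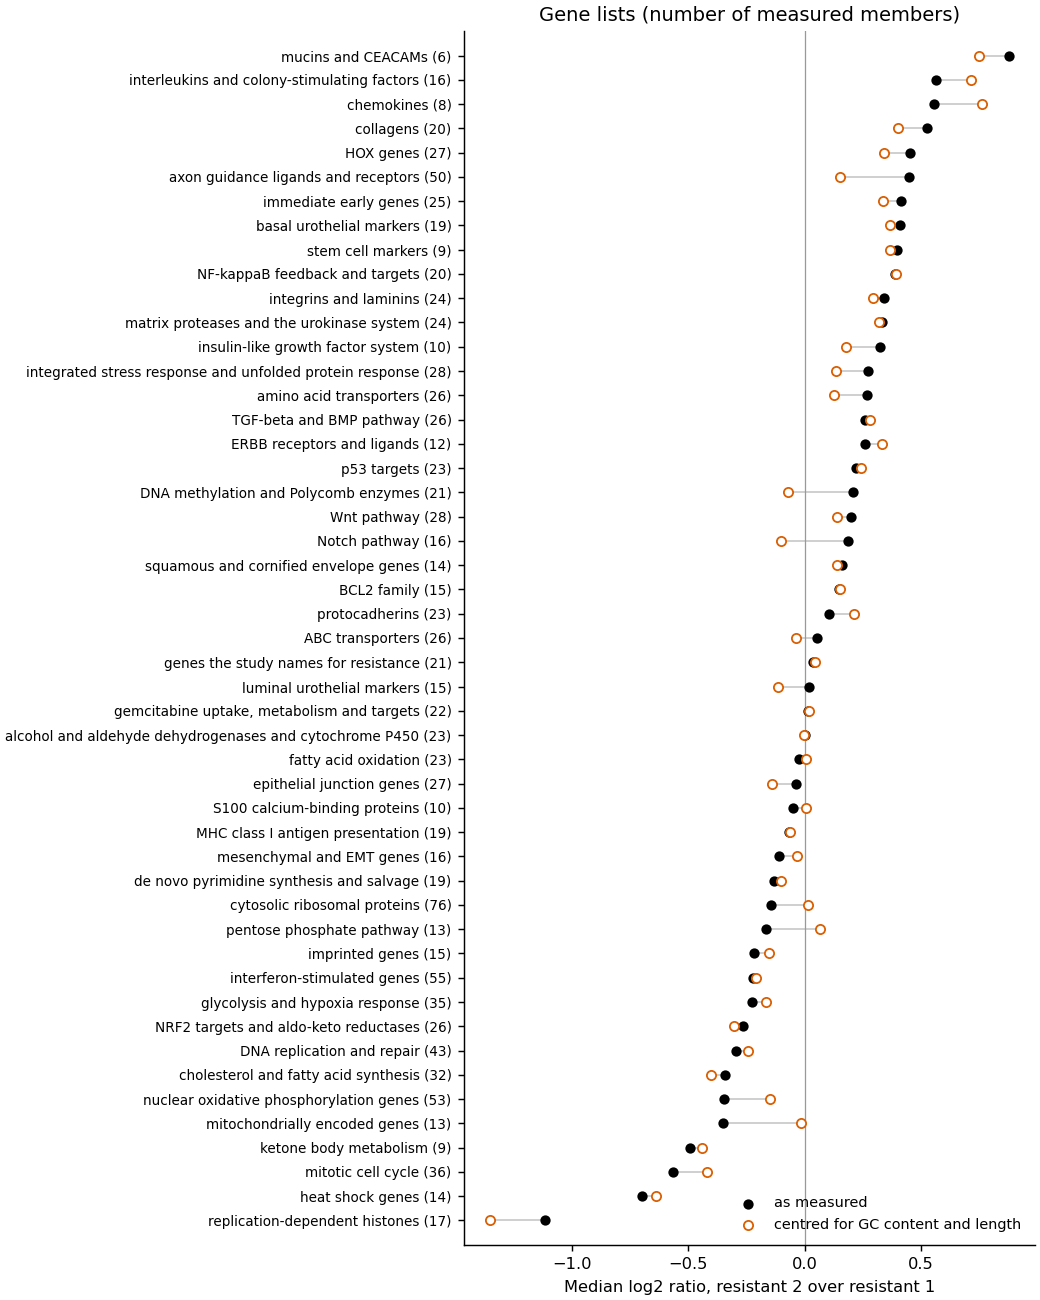
The median log2 ratio of Resistant 2 over Resistant 1 is plotted for each list with at least 5 measured genes, as measured (filled) and after centring for GC content and length (open), with the number of genes in brackets. Histones, heat shock and mitotic genes lie below -0.4 in both forms and interleukins and chemokines above 0.5, while axon guidance genes move from 0.45 to 0.15.

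Of the 22 measured genes of gemcitabine transport, metabolism and targets, 3 were at least 2-fold apart, where 9.58% of all genes were, and the list's median was 0.01. Genes of uptake and activation differed little. SLC29A1, the main nucleoside transporter, was at 50.8 CPM in Resistant 1, 54.9 in Resistant 2 and 29.5 in Parental 1. DCK, the activating kinase, was at 19.8, 20.1 and 12.6 CPM, with a ratio of the clones of 1.01 (interval 0.866 to 1.18). CDA, the deaminase that inactivates the drug, was at 12.4, 12.5 and 6.48 CPM, with a ratio of 1.01 (interval 0.830 to 1.23). HDDC2 was at 267 CPM in Resistant 1, 205 in Resistant 2 and 25.1 in Parental 1.

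The large subunit of ribonucleotide reductase was the exception. RRM1 was at 115 CPM in Resistant 1, 542 in Resistant 2 and 220 in Parental 1, a 4.73-fold difference (interval 4.50 to 4.97) with the parental level in between. The centred log2 ratio was 2.44, against 2.24 as measured. The small subunits did not follow it. RRM2 was at 279, 174 and 225 CPM, 1.61-fold higher in Resistant 1 (interval 1.53 to 1.68), and RRM2B at 8.39, 6.30 and 4.20. TYMS, thymidylate synthase, was at 73.8, 49.9 and 52.4 CPM. The other genes past 2-fold were NT5M, on 10 and 32 reads, and ABCG2, on 99 and 52 reads, which after centring was at -0.88.

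RRM1 lies on chromosome 11 (hg19, 4115937 to 4160106), and the next 5 measured genes along the chromosome were higher in Resistant 2 with it. TRIM21 held 134 reads in Resistant 1, 956 in Resistant 2 and 245 in Parental 1, TRIM68 held 204, 1525 and 397, and TRIM6 held 49, 180 and 42. TRIM5 held 633, 1984 and 954 reads and TRIM22 held 40, 125 and 15, and these last 2 overlap on opposite strands. The 6 genes were 2.92- to 6.99-fold higher in Resistant 2. STIM1, the gene before RRM1, was at 73.5 and 72.8 CPM, and FAM160A2, the gene after TRIM22, differed by 0.37 (0.06 after centring). RRM1, TRIM21, TRIM68 and TRIM5 lay below the parental level in Resistant 1 by 0.81 to 1.18 on the log2 scale and above it in Resistant 2. The flanking genes were below the parental level in both clones. STIM1 was at -0.68 over it in Resistant 1 and -0.69 in Resistant 2, and FAM160A2 at -1.13 and -0.76. The medians of chromosome 11 were -0.36 and -0.29. A level below the parental one in Resistant 1 was therefore not particular to RRM1 and these TRIM genes. Of 55 measured interferon-stimulated genes, 4 were higher in Resistant 2 and 4 in Resistant 1, with a median of -0.22. TRIM5, TRIM21 and TRIM22 of this run of neighbouring genes were among the 4 higher in Resistant 2. The share apart was 14.5%, where 9.58% of all genes were.

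Of 9 measured ketone body genes, which the study is about, 1 was past 2-fold, higher in Resistant 1, and 7 lay below the median gene, with a median of -0.50 (centred -0.44). The share apart, 11.1%, was near the 9.58% of all genes. OXCT1, the enzyme that commits ketone bodies to oxidation, was at 42.9 CPM in Resistant 1, 43.1 in Resistant 2 and 37.2 in Parental 1, a ratio of 1.00 (interval 0.905 to 1.12). ACAT2, counted above with cholesterol synthesis, was the member past 2-fold.

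Of the 21 measured genes that the study names for resistance, many were chosen by the study on libraries of this series. For those, neither the direction against the parental level nor the likeness of the 2 clones is independent evidence. Others, such as OXCT1 and CD44, the study named from other measurements. Between the clones the median of the 21 was 0.04, and 18 were less than 2-fold apart. The share apart was 14.3%, where 9.58% of all genes were. TBX2, a transcription factor, was at 18.9 CPM in Resistant 1, 17.9 in Resistant 2 and 2.63 in Parental 1. OVOL1, a regulator of epithelial identity, was at 19.5, 22.7 and 11.5 CPM. DPY19L2P2 (136, 343 and 13 reads) and LINC00839 (32, 72 and 0 reads) were higher in Resistant 2, and ZNF667 (93, 45 and 5 reads) in Resistant 1. ANXA6, ADH1C, TNNT3, PELI2, TMTC1 and TP53I11 were under the limit of 30 reads, with 0 to 8 reads in either clone against 24 to 315 in Parental 1, and CD36 held 0 to 1 reads in all 3.

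Some divergence ran along chromosomes. A stretch was taken as at least 15 neighbouring genes over which the running median of 15 genes stayed at least 0.4 from equality, so its size is a description and was chosen by these values. There were 17 stretches higher in Resistant 2, with 979 genes, of which 10 were on chromosome 19, and 19 higher in Resistant 1, with 488 genes. After centring there were 18, with 654 genes, and 13, which were partly others. At least 50% of the genes were also in a centred stretch for 10 of the 17 and 9 of the 19. The stretches below are those of the centred ratios, with medians as measured. On chromosome 13, which had a median of 0.43 (centred 0.58), genes between 21140585 and 29253062 (hg19, from IFT88 to POMP, 35 genes) had a median of 0.70, with medians over the parental level of -1 for Resistant 1 and 0 for Resistant 2. A later stretch, from DIAPH3 to TMCO3 (60239717 to 114204542, 89 genes), had a median of 0.64 and holds SOX21, KLF5, COL4A1 and COL4A2. TXNIP, RRM1 and SULF2 lie in no stretch so defined. The run of neighbouring genes from RRM1 to TRIM22 described above is shorter than the 15 genes required and could not be counted as a stretch.

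In other stretches Resistant 2 was the clone farther from the parental level. At the end of chromosome 10, from KIAA1598 to TUBGCP2 (118643742 to 135125841, 64 genes), the median was 0.58, with Resistant 2 at 0.76 over the parental level and Resistant 1 at 0.20. That stretch holds ADAM8 and MKI67. From YTHDF3 to ZBTB10 on chromosome 8 (64081112 to 81438500, 42 genes) the median was 0.46, with Resistant 2 at 0.51 and Resistant 1 at -0.02. From SETD5-AS1 to NUP210 on chromosome 3 (9391373 to 13461809, 51 genes) it was -0.73, with Resistant 2 at -0.65 and Resistant 1 at 0.02, and FANCD2 and RPL32 lie there. From H6PD to UBXN10 on chromosome 1 (9294834 to 20522541, 94 genes) it was -0.53, with Resistant 2 at -0.35 and Resistant 1 at 0.11. Chromosome 12 as a whole had a median of -0.35 (centred -0.32), with Resistant 2 at -0.55 and Resistant 1 at -0.19. Chromosome 19, whose genes are rich in GC, had a median of 0.58 that came to 0.36 after centring, and there Resistant 1 was the farther clone after centring, at -0.28 over the parental level against 0.09 for Resistant 2. Read counts do not show DNA copy number, which was not analysed here.

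**Figure D5:**
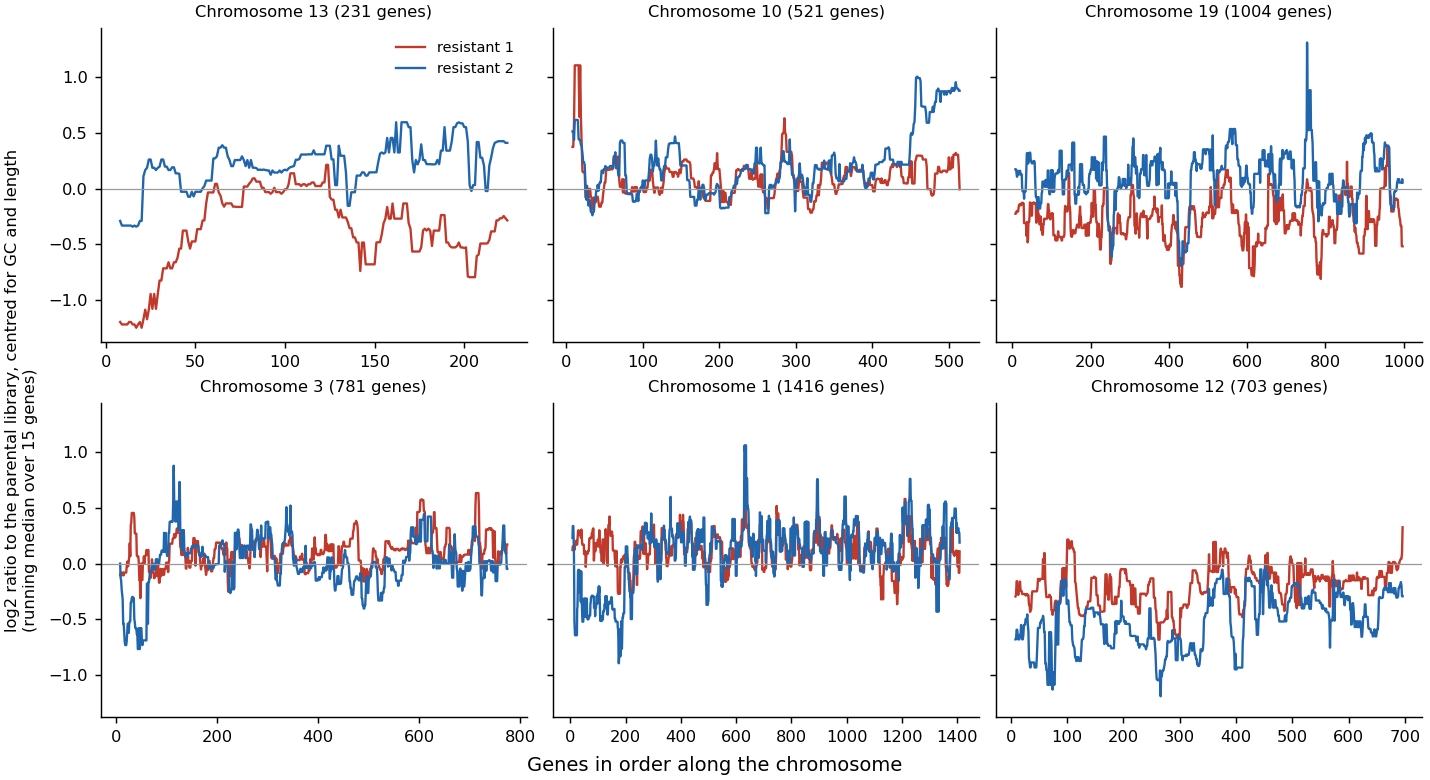
The running median over 15 genes of the log2 ratio to Parental 1, centred for GC content and length, is plotted in gene order along 6 chromosomes for Resistant 1 (red) and Resistant 2 (blue). The red line is lowest at the start of chromosome 13, and the blue line leaves the red one at the end of chromosome 10, near the start of chromosomes 3 and 1 and along much of chromosome 12.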

How the data were processed

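Poly(A) RNA of clones of the 5637 line was sequenced by the authors, 1 library for each of the 3 labelled samples. The deposited table holds raw read counts per gene, as counted by the authors, without normalization, with positions on hg19. Per the labels the build was hg19 and CASAVA 1.8 was used. The labels describe more than 1 library kit, a strand-specific one among them. The aligner, the counter, its strand setting and the annotation are not given in the sources used here. The 6 columns of libraries without a label, 3 FPKM columns and the columns of group means, fold changes and p-values were not used.

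Counts were scaled by TMM (edgeR 4.0.16, R 4.3.3). The log2 ratio was taken after adding 0.5 reads, over genes with at least 30 reads in the 2 resistant libraries together. Apart means at least 2-fold. Exact 95% Clopper-Pearson intervals and the floor of 3 reads (0.184 CPM in Resistant 1, 0.172 in Resistant 2 and 0.214 in Parental 1) cover counting error only. GC content was that of the longest GENCODE 29 transcript, found by identifier for 97.5% of genes, and ratios were centred within 20 classes of GC content, then within 10 of length. Lists were summarized by counts and medians. Named genes were, by rule, the 20 per direction with intervals farthest from equality, up to 6 members at least 2-fold apart per list, all measured gemcitabine, ketone body and study-named genes, the first, last and 5 most-read genes of a stretch, and the 10 most-read genes apart. CXCL6, HIST4H4, HSPA1B, KRT5, KRT13, TP63, PPARGC1A, SEMA3D, STIM1, FAM160A2, TRIM6, TRIM68, the genes that overlap a named gene and the cell type markers fall outside it, and were named after their values were seen. The genes and the 51 lists were chosen with earlier results of these data known. Values of some single list members are not reported here. The steps were tested on simulated data. Tables were handled with pandas 2.3.3 under Python 3.11.15, intervals came from scipy 1.17.1, and plots were drawn with matplotlib 3.10.9.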

Additional observations from a re-analysis of the deposited data

How the results depend on the processing

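With 1 library a clone, counting intervals leave out the spread between cultures and preparations, and genes under 100 reads are the least certain. No paired analysis was possible because the parental and resistant groups share a single replicate number and the clones have 1 library each, so no replicate could be left out either. The numbers of genes at least 2-fold higher in Resistant 2 and in Resistant 1 were 883 and 471. They became 5449 and 3094 with no filter beyond 1 read, 579 and 260 with at least 100 reads, 2199 and 1730 at 1.5-fold, and 171 and 46 at 4-fold, as these limits admit more or fewer genes. Total reads, DESeq2 1.42.0 size factors, other pseudocounts, whole intervals beyond 1.5-fold, centring within 20 bins of mean reads, centring for GC content and length, and protein-coding genes alone left both within 1.5 times, from 729 to 1153 and from 351 to 614. With a narrower limit around the parental level, 316 genes were outside it in Resistant 2 alone and 215 in Resistant 1 alone. Stretches higher in Resistant 1 numbered 32 under total reads and 10 when centred for GC content and length with a running median over 25 genes, against 19. Centring for GC content, chosen after seeing the data for sides, stretches, lists and named genes, kept the direction of all 219 named genes that were 2-fold apart and had a GC content, 167 of them still past 2-fold. No list with a median at least 0.3 in size turned direction under any alternative run. The medians of nuclear oxidative phosphorylation genes and mitochondrially encoded genes came from -0.35 and -0.35 to -0.15 and -0.01 under GC centring.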

Other observations

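Axon guidance ligands and receptors, which also steer epithelial and vascular cells, had 10 of 50 measured members at least 2-fold higher in Resistant 2 and 1 in Resistant 1. The share apart was 22%, where 9.58% of all genes were. NTN1, netrin 1, was at 19.8 CPM in Resistant 1, 67.7 in Resistant 2 and 76.0 in Parental 1, NRP2, a semaphorin and VEGF coreceptor, at 78.6, 208 and 136, and SEMA5A at 33.3, 88.6 and 71.5. SEMA3D was the member higher in Resistant 1. The median was 0.45 as measured and 0.15 after centring for GC content, when 8 and 2 members passed.

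Of 25 measured immediate early genes, 4 were higher in Resistant 2 (3 after centring), among them JUND (62.4, 195 and 77.2 CPM in Resistant 1, Resistant 2 and Parental 1) and DUSP4, a phosphatase of MAP kinases (205, 461 and 234). EGR1 was higher in Resistant 1, at 33.7, 9.45 and 34.0 CPM. Of this list 20% was apart, where 9.58% of all genes were. GBP1, an interferon-induced GTPase, held 43, 11 and 0 reads, and LGALS3BP was at 259, 116 and 252 CPM, both higher in Resistant 1.

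Among imprinted genes, MEST held 86 reads in Resistant 1, 16 in Resistant 2 and 482 in Parental 1, and GRB10 held 31, 139 and 868, so each clone held less of both than the parental library and in opposite order. SLC43A1, a transporter of branched-chain amino acids, was at 3.25, 20.6 and 3.56 CPM. The share of genes at least 2-fold apart was 9% for protein-coding genes, 13.2% for antisense transcripts and 16.8% for lincRNAs. These shares were not matched for read number, and over all genes the share was 24.4% under 100 reads and 4.02% over 1000. They therefore do not show that noncoding transcripts diverged more. The mitochondrially encoded genes took 3.28% of reads in Resistant 1, 2.43% in Resistant 2 and 2.27% in Parental 1.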
